A study of Mus musculus with 16 samples.

Results

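The later phase of retinoic acid (RA) treatment was followed in embryoid bodies (EBs) that lack Taf4a, by comparing 2 libraries of Taf4a-/- EB8 with 2 libraries of Taf4a-/- EB5. These 4 libraries, of 16 in the series, were chosen by genotype and stage alone, and all 27807 genes of the table were considered. The mouse ES cells carried a homozygous deletion of exons in Taf4a or were wild type (WT), and were grown on inactivated fibroblast feeders, aggregated into EBs (EB4), exposed to all-trans RA, and collected after the first day of RA (EB5) and after further days of RA (EB8). The series has 8 groups of 2 libraries, and according to its design text each genotype was represented by 2 independent lines. The 2 WT EB5 and 2 WT EB8 libraries serve here as the reference for the same interval. The labels do not say which line each replicate number is, and the main fit leaves the replicate number out. Its p-values measure the spread between the libraries of a group, pooled over all 16 libraries.

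Taf4 belongs to the core of TFIID, which recognises core promoters and nucleates the assembly of the RNA polymerase II preinitiation complex. RA is a ligand of nuclear receptors that, in aggregated ES cells, drives the loss of pluripotency genes, the colinear activation of Hox genes and entry into the neural lineage. In this protocol WT EB8 cells are labelled neural precursor cells, and the Taf4a-/- EB8 libraries carry the same label.

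Depth was 26970517 and 26162763 reads in genes in the Taf4a-/- EB5 libraries and 22700595 and 22442118 in the Taf4a-/- EB8 libraries. Values are normalised counts, that is, reads divided by the size factor of the library. The count of Taf4a itself was 2284 and 2002 at EB5 and 2341 and 1973 at EB8 in Taf4a-/-, against 1591 and 1940 in WT EB8, so the gene-level count does not check the genotype. Chromosome-wide levels set some libraries apart. The median log2 deviation of X-linked genes was -0.18 and 0.40 in replicates 1 and 2 of Taf4a-/- EB5 and -0.26 and 0.40 in those of EB8, and that of chromosome 11 was 0.18 and -0.03 at EB5 and 0.27 and -0.08 at EB8. In WT, chromosome 8 stood at 0.39 and -0.12 at EB5 and 0.38 and -0.13 at EB8.

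The label of neural precursor cells was checked first against marker genes. Pax6, a homeobox factor of neural progenitors, was at 696 and 278 normalised counts in Taf4a-/- EB5 and at 838 and 361 in Taf4a-/- EB8, and at 5447 and 5317 in WT EB8. Dbx1, a homeobox factor of interneuron progenitors, was at 0 and 2.1 in Taf4a-/- EB8 but at 4360 and 3448 in WT EB8. Fabp7, a fatty-acid binding protein of radial glia, was at 3.2 and 1.1 against 354 and 281, and Hes5, a Notch effector of neural progenitors, at 14.8 and 5.3 against 811 and 1101. The pluripotency factor Nanog was meanwhile at 7989 and 8408 in Taf4a-/- EB8 and at 118 and 313 in WT EB8. The markers given here therefore go against the label for the Taf4a-/- EB8 libraries, which are called by their genotype and stage. Nes, Sox3 and Pax3, also in the planned set of neural precursor markers, are not given.

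The test covered the 16124 genes whose mean over the 16 libraries reached 10 normalised counts, and 119 of them changed between Taf4a-/- EB5 and EB8 at an adjusted p under 0.05, or 0.738% (limma with Benjamini-Hochberg adjustment). Of these, 69 rose (0.428%) and 50 fell (0.31%). The median change was 3.14 on the log2 scale for genes that rose and -1.66 for those that fell. In WT the same interval gave 1683 calls (10.4%), of which 938 rose (5.82%) and 745 fell (4.62%). The number of calls in Taf4a-/- rests on all 4 libraries and on the estimate of spread. It was 4 without replicate 2 of EB5, 43 without replicate 1 of EB5, 47 and 25 without replicates 1 and 2 of EB8, 299 with the replicate number as a block (1.85%) and 1 when only the 4 libraries entered the fit. The gene called from the 4 libraries alone was not among the 119. At an unadjusted p under 0.05, 2065 genes differed. Over all genes tested, both EB8 values lay above both EB5 values for 22.3% and below them for 23.5%. All 119 called genes were without overlap.

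Among the 15 genes with the largest rises, Fat4, an atypical cadherin of planar polarity, was at 9.5 and 3.9 normalised counts in the EB5 libraries and at 513 and 508 in the EB8 libraries. Its EB5 and EB8 values did not overlap, which the choice of genes required. It rose by 6.16 ± 0.47 on the log2 scale (SE, n = 2 per group, limma adjusted p = 0.000222). Ecm1, a secreted glycoprotein of the extracellular matrix, went from 79.6 and 183 to 4669 and 7937, which is a rise of 5.64 ± 0.46 (log2, limma adjusted p = 0.000234). Dlk1, an imprinted transmembrane protein of the Notch ligand family, went from 110.0 and 97.9 to 2018 and 1250 (3.92 ± 0.37, limma adjusted p = 0.000786). Both EB8 libraries lay far above both EB5 libraries for each of these genes, and Fat4, Ecm1 and Dlk1, with Usp44 among the falls, were the 4 of the 30 genes with the largest changes that kept their call without any single library of the 4. The other 26 all lost it without replicate 2 of EB5, and of the 18 called genes of the gene lists only Dlk1 kept it throughout. In the annotation, exons of Fat4, Fam70a, Duoxa2, Shisa3, Dll1 and Tmem63a, and among the called list genes those of Sall4, Col4a1, Col4a2, Timp3 and Igf2, overlap a gene on the opposite strand, and those of Celsr3 a gene on its own strand. Reads of such a pair cannot be told apart here.

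Foxn4, a forkhead factor of interneuron and retinal progenitors, had the largest fall among genes with a mean of at least 100 at either stage, from 821 and 1199 to 78.1 and 82.0 (log2 change -3.62 ± 0.40, limma adjusted p = 0.00256). Its call was lost without replicate 2 of EB5 (limma adjusted p = 0.0518). The bases before the RefSeq start of these 4 genes are shown because they carry the largest or most stable changes of the comparison and lie where TFIID binds. Each is 100 bases long, read 5′ to 3′ up to the base before the start, with the letters TATAAA in capitals, and positions are on mm9.

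Ecm1 (minus strand, chr3:95543493-95543592): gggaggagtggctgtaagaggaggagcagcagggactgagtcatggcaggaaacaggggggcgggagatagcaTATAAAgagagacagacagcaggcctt
Fat4 (plus strand, chr3:38785762-38785861): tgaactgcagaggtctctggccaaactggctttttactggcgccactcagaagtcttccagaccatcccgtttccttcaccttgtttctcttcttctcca
Dlk1 (plus strand, chr12:110690933-110691032): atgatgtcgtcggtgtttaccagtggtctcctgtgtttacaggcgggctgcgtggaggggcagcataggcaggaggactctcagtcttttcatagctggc
Foxn4 (minus strand, chr5:114723771-114723870): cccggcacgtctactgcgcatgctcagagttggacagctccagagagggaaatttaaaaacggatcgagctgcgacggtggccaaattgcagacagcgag

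TATAAA began 27 bases before the start of Ecm1 and was not found in the other 3 stretches. On the sense strand, 1.91% of 32851 RefSeq promoter windows held TATAAA between 40 and 20 bases before the start. A promoter window was found for 48 of 69 genes that rose and 36 of 50 that fell, under the 80% needed, so a comparison of shares between these sets is void.

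**Figure D1:**
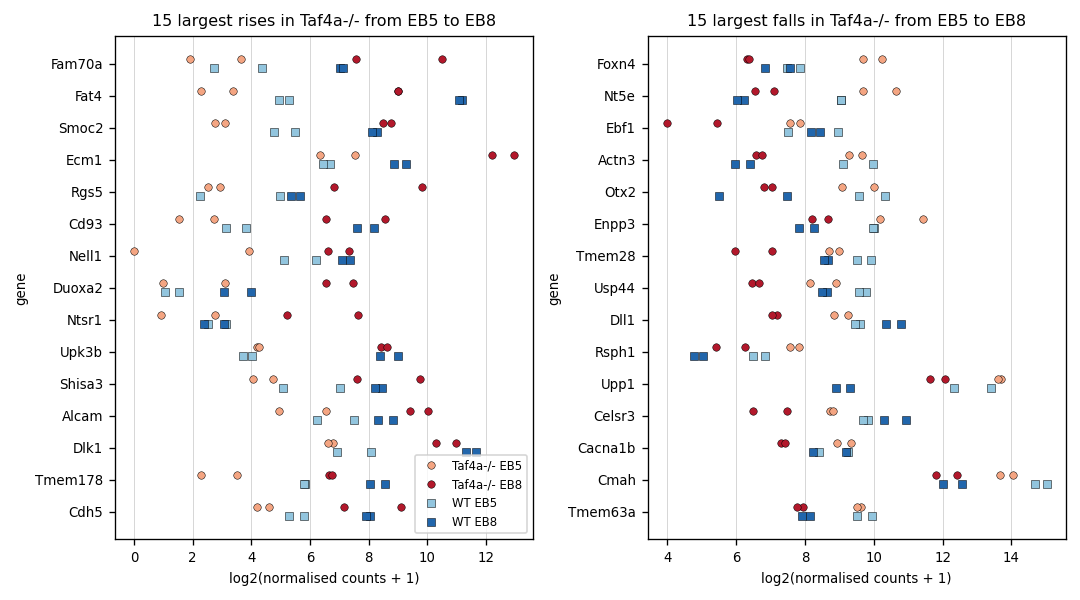
Levels of the 15 genes with the largest rises (left) and the 15 with the largest falls (right) in Taf4a-/- from EB5 to EB8, as log2(normalised counts + 1) on the x axis, with 1 point per library (circles for Taf4a-/-, squares for WT, light for EB5 and dark for EB8). The light and dark circles do not overlap for any of these genes, which the choice of genes required, while the distance between the 2 EB8 circles is wide for Fam70a, Rgs5 and Ntsr1.

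Genes known from endothelium and pericytes were among the rises. Cdh5, the cadherin of endothelial junctions, was at 17.1 and 23.3 in EB5 and at 140 and 547 in EB8 (log2 change 3.73 ± 0.68, limma adjusted p = 0.0314). Rgs5, a regulator of G-protein signalling known from pericytes, went from 6.6 and 4.8 to 111 and 912, and Cd93, a lectin-like receptor of endothelial cells, from 5.7 and 1.9 to 92.8 and 374. Replicate 2 of EB8 was the higher library for all 3 genes, and each call was lost without it (limma adjusted p = 0.208 for Cdh5, 0.146 for Rgs5 and 0.0991 for Cd93). In WT EB8 Cdh5 was at 262.5 and 237.2 and Cd93 at 195.3 and 286.9, and both rose from WT EB5 (limma adjusted p = 0.0398 and 0.00484). Rgs5 was at 49.4 and 40.2 in WT EB8 and did not pass there (limma adjusted p = 0.246). Erg, also known from endothelium and picked after its values were seen, rose in Taf4a-/- from 13.3 and 14.5 to 164.6 and 107.6 (limma adjusted p = 0.0313). Its higher EB8 library was replicate 1. Of 10 tested genes of an endothelium and blood list, Cdh5 rose, none fell and 9 did not pass. Pecam1, an adhesion molecule of endothelium and of ES cells, was at 2200 and 2720 in EB5 and at 2236 and 1337 in EB8. The summed level of the list was 3112 and 3268 at EB5 and 3138 and 3784 at EB8. Its median change was 0.87, and 0.24 without replicate 2 of EB8. The embryonic globin Hba-x was at 0 in all 4 libraries. In bulk RNA, more cells of a type cannot be told apart from more RNA per cell, and the part of other cell types in these rises was not tested.

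Some matrix genes rose. Col4a1 and Col4a2, the collagen IV chains of basement membranes, lie head to head on chromosome 8. Col4a1 was at 1105 and 941 in EB5 and at 4189 and 5533 in EB8 (2.24 ± 0.33, limma adjusted p = 0.0135). Col4a2 was at 613 and 670.1 in EB5 and at 3194 and 3113 in EB8 (2.30 ± 0.40, limma adjusted p = 0.0288). The annotated exons of the pair overlap on opposite strands, and the library kit does not mark strand. Timp3, an inhibitor of metalloproteinases, went from 172 and 159.0 to 745 and 412. These were the 3 members of 24 in the extracellular matrix list that rose, with none falling and a list median of 0.26 against -0.02 over all genes tested. Col3a1, the fibrillar collagen of mesenchyme, was at 27.5 and 66.9 in EB5 and at 171 and 1210.1 in EB8 and did not pass (limma adjusted p = 0.117). None of 10 tested genes of the fibroblast list passed. Its summed level was 1555 and 1750.3 at EB5 and 1689 and 4430.3 at EB8, and Lum was at 0 and 3.2 in EB8.

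Of the BMP and TGF-beta list, 2 of 24 tested genes rose and none fell. Tgfb2 went from 50.2 and 43.6 to 343 and 398 (2.95 ± 0.50), and Tgfb3 from 59.7 and 21.3 to 256 and 378 (3.08 ± 0.52), both with a limma adjusted p of 0.0238. Both ligands act through the TGF-beta receptors. Lefty1, a Nodal inhibitor expressed in pluripotent cells, was at 7962 and 5426 in EB5 and at 550 and 727 in EB8, without overlap, and did not pass (limma adjusted p = 0.0558). Nodal, its target ligand, was at 1698 and 1672 and then at 820 and 963 (limma adjusted p = 0.217).

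The imprinted Igf2 and H19, neighbours on chromosome 7, both rose. Igf2, a growth factor of the embryo, went from 6027 and 2973 to 65188 and 35052 (3.50 ± 0.56, limma adjusted p = 0.0184). H19, a noncoding RNA, went from 10189 and 7701 to 85491 and 37097 (2.67 ± 0.38, limma adjusted p = 0.0115). Replicate 1 was the higher at both stages for both genes, and the groups did not overlap. With Dlk1, 3 of 18 genes of the imprinted list rose and none fell, and the list median was 0.48. The Igf2 exons overlap those of Igf2as on the opposite strand, so reads cannot be assigned between the pair. In WT the log2 changes were 2.91 for Igf2, 2.30 for H19 and 4.00 for Dlk1, and the difference between genotypes did not pass for any of these genes (limma adjusted p = 0.934, 0.943 and 0.989).

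**Figure D2:**
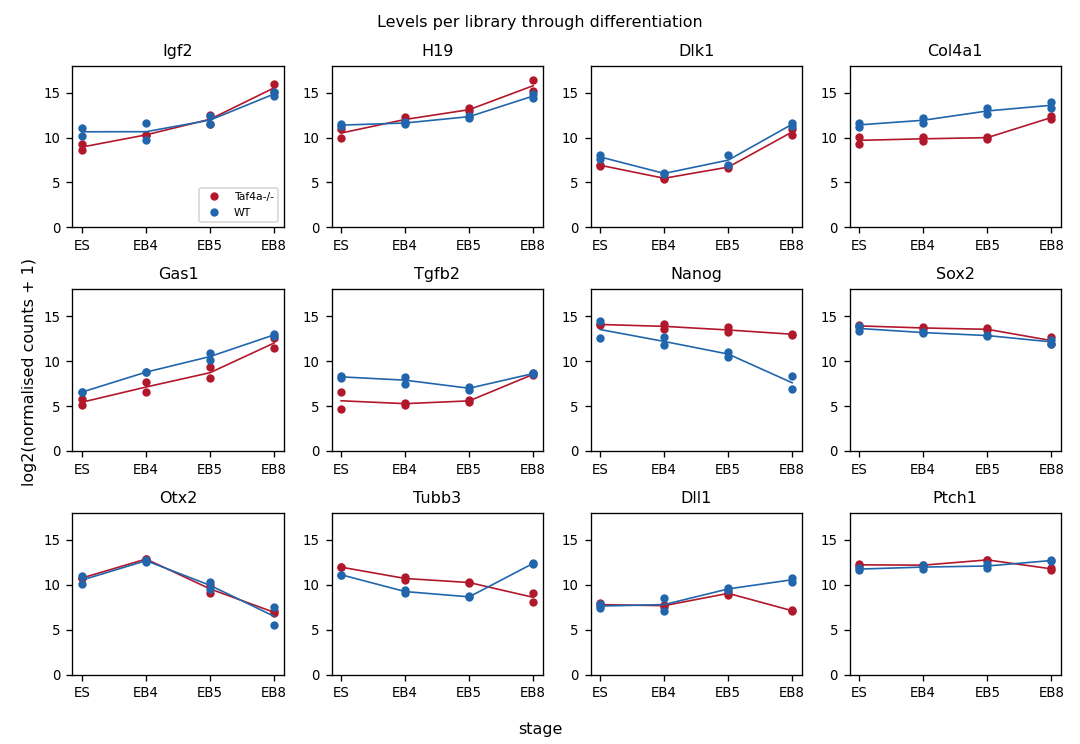
Levels of 12 genes as log2(normalised counts + 1) on the y axis against the stage (ES, EB4, EB5, EB8), with a point per library and a line through the mean of the 2 libraries of Taf4a-/- (red) and WT (blue). Igf2, H19 and Dlk1 are higher at EB8 than at EB5 in both genotypes, Nanog lies above WT in Taf4a-/- at EB4, EB5 and EB8, and Tubb3, Dll1 and Ptch1 are lower at EB8 than at EB5 in Taf4a-/- and higher in WT.

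Of 24 tested pluripotency genes, 2 fell and none rose in Taf4a-/-, with a median of -0.73, while 16 fell in WT with a median of -2.46. Sox2, a factor shared by pluripotent and neural cells, was at 12814 and 11281 in EB5 and at 6517 and 3904 in EB8 (-1.25 ± 0.24, limma adjusted p = 0.0377). Sall4, a zinc finger factor of ES cells, was at 10281 and 10347 in EB5 and at 6405 and 4833 in EB8 (-0.89 ± 0.17, limma adjusted p = 0.0383). Both EB8 libraries lay below both EB5 libraries for the pair. Nanog was at 9428 and 13846 in EB5 and at 7989 and 8408 in EB8, a log2 change of -0.48 with a 95% interval of -1.67 to 0.72 (limma adjusted p = 0.802). Pou5f1 was at 5628 and 10036 and then at 3218 and 3690.0 (-1.12, interval -1.95 to -0.30, limma adjusted p = 0.217). Esrrb was at 6788 and 9635 and then at 5511 and 5325 (limma adjusted p = 0.516). None of the 24 differed in its change between genotypes at the threshold, and for Pou5f1 the adjusted p of the difference was 0.0541. Otx2, a factor of primed epiblast and anterior neural cells, fell from 1029 and 536 to 111 and 132 (limma adjusted p = 0.0469), 1 of 9 tested genes of the primed epiblast list.

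Of 23 tested genes of the neuron list, none rose and 1 fell in Taf4a-/-, with a median of -0.47, whereas 16 rose and none fell in WT, with a median of 3.19. With the replicate number as a block 3 fell. The difference in change between genotypes passed for 10 genes, each lower in Taf4a-/-. Tubb3, the neuronal beta-tubulin, was at 1168 and 1270.3 in EB5 and at 555 and 272 in EB8 (-1.65 ± 0.27, limma adjusted p = 0.0186). Its level in Taf4a-/- was already falling before EB5, from 4005 and 3991 in ES to 1439 and 1932 in EB4. In WT it was at 2181 and 2263 in ES, at 386 and 420 in EB5 and at 5245 and 5470 in EB8. Dcx, a microtubule protein of migrating neurons, was at 25.6 and 7.8 and then at 61.2 and 88.4 in Taf4a-/-, without passing (limma adjusted p = 0.268), and at 4946 and 6972 in WT EB8. Snap25, a protein of synaptic vesicle fusion, was at 8.5 and 9.7 and then at 5.3 and 7.5 in Taf4a-/-, and at 461 and 555 in WT EB8. Elavl4, a neuronal RNA-binding protein, was at 26.5 and 35.9 and then at 44.3 and 26.6 in Taf4a-/-.

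Of 29 tested genes of the neural progenitor list, 1 rose and none fell, with a median of -0.09, against 15 rises and a median of 2.66 in WT. The member that rose was Vim, an intermediate filament of progenitors and of mesenchyme, from 1421 and 1277 to 3909 and 4443 (1.63 ± 0.26, limma adjusted p = 0.0186). The proneural factor Neurog2 was at 6.6 and 0 and then at 5.3 and 2.1, against 831 and 553 in WT EB8. The POU factor Pou3f3, which belongs to none of the lists and was picked after its values were seen, rose from 10.4 and 10.7 to 84.4 and 42.6 (2.40, limma adjusted p = 0.0483), and its rise in WT was larger, at 7.09 (limma adjusted p of the difference 0.0121).

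**Figure D3:**
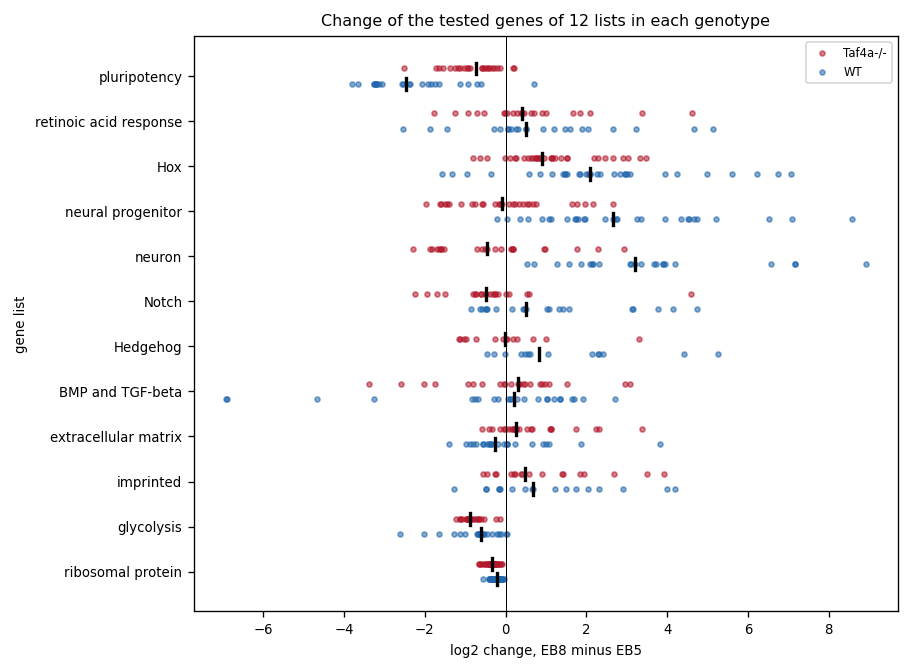
Log2 change from EB5 to EB8 (x axis) of each tested gene of 12 gene lists, in Taf4a-/- (red) and in WT (blue), with a black bar at the median of each list. The medians of the neuron list are -0.47 and 3.19 and those of the neural progenitor list -0.09 and 2.66, whereas those of the imprinted list are 0.48 and 0.67.

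The Notch and Hedgehog lists held 1 fall each, beside 0.31% of all genes tested that fell. Dll1, a Notch ligand of neural progenitors, was at 459 and 606 in EB5 and at 145 and 130.0 in EB8 (-1.94 ± 0.38, limma adjusted p = 0.0437), the only call among 21 Notch genes. In WT 8 of the 21 rose. Dll4, the Notch ligand of endothelium, was at 2.8 and 10.7 and then at 77.0 and 339 and did not pass (limma adjusted p = 0.0502). Of 14 Hedgehog genes, 1 rose and 1 fell. Gas1, a co-receptor of Hedgehog ligands, went from 653 and 272 to 6329 and 2755 (3.31 ± 0.50, limma adjusted p = 0.0159). Ptch1, the Hedgehog receptor and a target of the pathway, went from 6926 and 7065 to 3741 and 3297 (-0.99 ± 0.18, limma adjusted p = 0.0314). The ligand Shh was at 4.7 and 5.8 and then at 4.2 and 4.3.

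Of 22 genes of the RA response list, 1 rose and none fell, and with the replicate number as a block 2 rose, Cyp26b1 being the other. Cyp26a1, the enzyme that degrades RA, was at 12873 and 6704 in EB5 and at 16825 and 8829 in EB8, with overlapping groups (0.39, interval -1.07 to 1.85). Cyp26b1, its paralogue, was at 383 and 438 and then at 4198 and 4334.5, without overlap and without passing (limma adjusted p = 0.0798). Stra8, a germ cell gene induced by RA, was at 4486 and 7028 and then at 29638 and 19045 (limma adjusted p = 0.195). The gene called without the block was Aldh1a1, an enzyme of RA synthesis, with no read in the EB5 libraries and 13.7 and 39.4 normalised counts in EB8, at least 9.23-fold higher against a floor of 3 reads per library. In WT Aldh1a1 went from 13.2 and 20.9 to 412.7 and 487.0, a log2 change of 4.67 against 4.61 in Taf4a-/-. Its call in Taf4a-/- was lost in edgeR (adjusted p = 0.067).

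None of 32 tested Hox genes passed in Taf4a-/- (with the replicate block 1, Hoxc6, rose), although 28 had a positive change and the median was 0.89. In WT 12 rose, and the median was 2.10. Hoxb9 was at 643 and 317 in EB5 and at 997 and 600 in EB8 in Taf4a-/-, and went from 36.7 and 59.3 to 5724 and 7120.3 in WT (limma adjusted p of the difference 0.0126). Hoxb8 was at 417 and 127 and then at 429 and 178 in Taf4a-/-, and its difference also passed (limma adjusted p = 0.0399). Hoxc8, by contrast, was at 156 and 36.8 and then at 482 and 681 in Taf4a-/- (2.90, limma adjusted p = 0.0735), and at 47.3 and 43.4 in WT EB8. Hoxc6 was at 139 and 28.1 and then at 626 and 646 (limma adjusted p = 0.080).

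Several lists of broadly expressed genes had a uniform sign without a call. All 42 ribosomal protein genes (median -0.34), all 21 glycolysis genes (-0.88) and all 17 tested genes of cholesterol synthesis (-0.59) had a lower mean level in EB8, against a median of -0.02 over all genes tested. The medians in WT had the same sign, at -0.22, -0.61 and -0.16, and 4 of the glycolysis genes fell there. In Taf4a-/- the summed level of the glycolysis list was 675806 and 675024 at EB5 and 502323 and 268555 at EB8, and its median was -1.33 without replicate 1 of EB8 and -0.34 without replicate 2. With the replicate number as a block 2 glycolysis genes (Pfkl and Eno1) fell. These values share 4 libraries and the scaling of each. The 17 TFIID entries had a median of 0.01 and no call, and Taf4b, the paralogue of Taf4, was at 919 and 777 in EB5 and at 832 and 916 in EB8.

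Among the other genes with the largest falls, Upp1, a uridine phosphorylase, went from 13158 and 12437 to 4306 and 3145, and Cmah, a sialic acid hydroxylase, from 16884 and 13017 to 3564 and 5523. Nt5e, the ecto-5′-nucleotidase, went from 1605 and 827 to 91.8 and 136, and Enpp3, a nucleotide pyrophosphatase, from 2732 and 1167 to 410.4 and 292. Celsr3, an atypical cadherin of axon tracts, went from 422 and 453 to 178 and 88.4, and Cacna1b, a subunit of N-type calcium channels, from 640.0 and 489.7 to 157 and 169. Actn3, an actinin of fast muscle fibres, went from 622 and 800.0 to 93.9 and 108, Usp44, a deubiquitinase, from 476 and 285 to 86.5 and 101, and Rsph1, a radial spoke protein of motile cilia, from 228 and 187 to 74.9 and 41.5. Ebf1 and Upp1 lie on chromosome 11 and Tmem28 and Fam70a on X, whose levels differed between the replicates as given above. Fam70a was at 2.8 and 11.6 in EB5 and at 189 and 1449 in EB8, with the higher value in replicate 2 at each stage, and the part of the X level was not tested.

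The changes were then set beside WT. Of the 69 genes that rose in Taf4a-/-, 68 also had a positive change in WT and 42 passed there, and the exception was Ntsr1, a neurotensin receptor, with -0.09 in WT. Of the 50 that fell, 40 had a negative change in WT and 26 passed there, while Tubb3 passed in the opposite direction. Of the 938 genes that rose in WT, 725 had a positive change in Taf4a-/- (77.3%), and 42 were called as rising there. Their median was 2.11 in WT, where they were selected, and 0.44 in Taf4a-/-. The difference between genotypes passed for 103 of them. Of the 745 that fell in WT, 665 had a negative change in Taf4a-/- (89.3%), and 26 were called as falling there. Their medians were -1.64 in WT and -0.55 in Taf4a-/-, and the difference between genotypes passed for 15. The test of the difference itself called 126 genes (0.781%), with the change lower in Taf4a-/- for 110 (0.682%) and higher for 16 (0.0992%), and 102 of the 110 were genes that rose in WT. With quantile normalization the split was 118 lower and 42 higher. In the main fit the difference passed for 2 of the 69 genes that rose in Taf4a-/-, Ecm1 and Pou3f3, and for 9 of the 50 that fell. The 126 became 13 without replicate 2 of WT EB8 and 19 to 74 without each of the other 7 libraries of the 4 groups in turn.

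**Figure D4:**
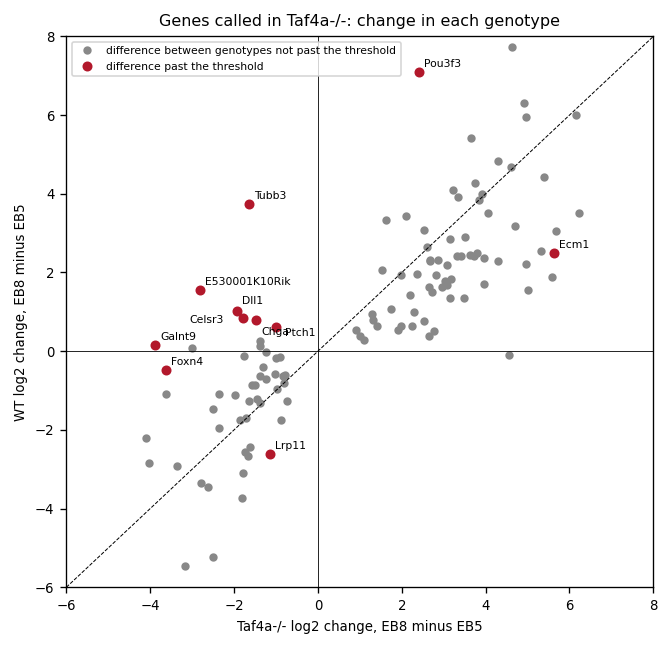
The 119 genes called in Taf4a-/-, with the log2 change from EB5 to EB8 in Taf4a-/- on the x axis and in WT on the y axis. Red points are genes whose change differed between genotypes at an adjusted p under 0.05, and the dashed line marks equal change. Most points lie in the quadrants of equal sign, and Tubb3, Dll1, Celsr3, Chga and Ptch1 lie above the line, with a fall in Taf4a-/- and a positive value in WT.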

How the data were processed

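Poly-A RNA was sequenced (TruSeq v2 libraries, single-end reads) in 16 libraries of 8 groups, 2 per group. Per the labels, the submitters' processing notes name CASAVA 1.7 and 1.8, TopHat2 2.0.10, HTSeq 0.5.4p3, DESeq2 1.0.19 and mm9. The deposited values are a signal that the authors made by dividing gene counts by the size factor of each library, and whole reads were recovered from their steps for 100.00% of values in every library (within 0.001 of a read). Depth ran from 22442118 to 40711826 reads per library. The intervals given for changes come from the limma fit and include the spread between libraries. The floor on reads, by contrast, covers counting error only.

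log2(normalised counts + 1) of genes with a mean of at least 10 was fitted with limma 3.58.1 (8 group means, all 16 libraries, trend, 8 residual and 4.27 prior degrees of freedom, Benjamini-Hochberg threshold 0.05, two-sided). The scripts were tested on simulated data. edgeR 4.0.16 and DESeq2 1.42.0 served as alternative tests of the recovered reads, besides other pseudocounts, filters, scalings, a replicate block and each library left out. Named genes are the 15 largest rises and 15 largest falls among called genes without overlap, with a mean of at least 100 in the higher group, without Gm and Rik names and pseudogenes, plus members of 32 lists, of which Sox1 and Hmgcs1 were not matched. Of 27807 identifiers, 27603 matched GENCODE M1. Members and lists were chosen with earlier results of these data known. Promoter sequences are from RefSeq (GRCm38.p6), placed on mm9 by an exact, single match. Some genes are not reported here.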

Additional observations from a re-analysis of the deposited data

Results flagged for a closer look

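The change from EB5 to EB8 differed between Taf4a-/- and WT (limma interaction test over all genes, Benjamini-Hochberg) for 13 of the genes given with values above. Differences are the log2 change in Taf4a-/- minus that in WT. Ecm1 rose more in Taf4a-/-, by 3.15 (5.64 against 2.50, limma adjusted p = 0.0486). Foxn4 differed by -3.15 (-3.62 against -0.47, limma adjusted p = 0.0257). In WT, Foxn4 was at 231.5 and 177.9 in EB5, below both Taf4a-/- EB5 libraries, and at 113.4 and 189.5 in EB8. Dll1 differed by -2.96, Celsr3 by -2.64, Tubb3 by -5.38 and Ptch1 by -1.60, with a fall in Taf4a-/- and a positive change in WT for each of these 4 genes, and Tubb3 had the smallest adjusted p (limma, 8.54e-05).

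The other 7 genes rose in WT by more than they changed in Taf4a-/-, where the change was positive for all but Snap25 (-0.47). Among neuronal genes the difference was -7.89 for Neurog2, -6.62 for Dcx, -3.74 for Elavl4 and -4.65 for Snap25. It was -5.95 for Hoxb8, -6.29 for Hoxb9 and -4.69 for Pou3f3.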

How the results depend on the processing

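The comparison had 2 libraries per group, and its 119 calls became 76 and 183 with pseudocounts of 0.1 and 5, 299 with the replicate block, 661 with DESeq2, 13 at an adjusted p under 0.01, 1 with only the groups compared in the fit, and 4 to 47 without each library in turn. The gene called in the fit of only the groups compared was not among the 119. That fit has fewer residual degrees of freedom, and the other causes were not tested. The 126 genes that differed between genotypes became 225 with a pseudocount of 5, 227 with the replicate block, 488 with DESeq2, 16 at an adjusted p under 0.01, and 13 to 74 without each library. Over the lists, 18 called genes became 36 with the replicate block, 78 with DESeq2, 1 with only the groups compared, 1 at an adjusted p under 0.01, and 1 to 9 without each library. The filters on low values, both rescalings and edgeR (83 calls) kept these counts within 1.5 times, but not all of the genes. Without the filter 88 of the 130 calls were among the 119, and with edgeR 81 of the 83 were. The list gene called with only the groups compared was not among the 18.

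The replicate numbers share no stated line. The X-linked level of replicates 1 and 2 was -0.15 and 0.36 in Taf4a-/- ES and -0.21 and 0.55 in Taf4a-/- EB4. In WT it was -0.22 and 0.47 in ES and -0.19 and -0.15 in EB4. Differences between replicates 1 and 2 correlated across genes in all 7 pairs of stages compared within a genotype (r = 0.233 for Taf4a-/- EB5 and EB8, the lowest, up to 0.422 among the other Taf4a-/- pairs, and 0.570 for WT EB5 and EB8, with genes not independent), and the block kept all 119 calls.

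Of the 30 genes with the largest changes, 21 kept the call in edgeR and all 30 in DESeq2, with the replicate block and under both rescalings, and none with only the groups compared. Uncalled genes whose sign turned when a library was left out ranged from -0.34 to 0.98 (Pax6), -0.78 to 2.15 (Neurog2), -1.12 to 0.82 (Dbx1), -0.21 to 0.51 (Elavl4), -0.08 to 0.86 (Cyp26a1), -0.59 to 1.12 (Hoxb8), -0.12 to 0.13 (Taf4a) and -0.07 to 0.17 (Taf4b), and Taf4a was at -0.02 with upper-quartile rescaling.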

Other observations

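Of the 69 genes that rose in Taf4a-/-, 9 lie on chromosome 8, the highest count among the chromosomes, and no test of that count was run. Chromosome 8 holds 853 of the 16124 genes tested, and 1 of the 50 that fell lies there. The median change over all chromosome 8 genes was -0.01, and the chromosome's level was -0.14 and 0.03 in Taf4a-/- EB5 and -0.09 and 0.00 in EB8. Besides Cdh5, Col4a1 and Col4a2, these genes included Plat, the tissue plasminogen activator, which was at 291 and 132 in EB5 and at 787 and 2260.4 in EB8, and Nrp1, a receptor of semaphorins and VEGF, at 212 and 98.9 and then at 656 and 1097. Plat and Nrp1 were named after their values were seen.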
